A study of Salmo salar with 18 samples.

Results

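The glutathione transferase genes described here were 8 genes of Atlantic salmon gill, chosen by name from the 69389 genes in the deposited gene set: gstr (ENSSSAG00000056150), gsto1 (ENSSSAG00000076348), gstm.1 (ENSSSAG00000099717), gstt1a (ENSSSAG00000069741), gstt2 (ENSSSAG00000064478), mgst2 (ENSSSAG00000037693), mgst3b (ENSSSAG00000114315) and gstcd (ENSSSAG00000052843). The series is an RNA-seq study of gills from Salmo salar of 1 genetic line. The feed was either the control diet, CD, or CD with added LAN4, a product made from the hydrolyzed yeast Debaryomyces hansenii, given for 7 weeks and for 1 more week of acclimatization. Fish were sampled without stress (pre-stress), or 1 h or 6 h after an acute hypoxia stress in which they were held out of the water in a net for 1 minute. Each of the 6 groups of diet and sampling time held 3 fish, and each fish gave 1 library, for 18 libraries in all. The labels do not say which tank each sequenced fish came from, so tank cannot be told apart from diet or sampling time.

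Glutathione transferases join the tripeptide glutathione to reactive compounds of foreign or internal origin, which makes them more soluble and ready for export from the cell. Vertebrates carry a soluble superfamily, divided into classes such as mu, theta, omega and rho, and an unrelated membrane-bound family known as MAPEG. In fish the gill is a large surface in contact with water and blood, where such enzymes act on oxidants and on waterborne chemicals. Of the genes here, gstr belongs to the rho class, which is known from fish, gsto1 to the omega class, whose members act mainly as reductases through a cysteine, gstm.1 to the mu class, and gstt1a and gstt2 to the theta class. The genes mgst2 and mgst3b code for MAPEG enzymes, and gstcd codes for a protein named for a domain like the C-terminal part of the soluble transferases.

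The libraries held between 10128626 and 19851609 counts. In the 6 h libraries the counts ended partway along the genome, and 16 of the 29 chromosomes were complete in every library. These carried 42615 genes and 6 of the 8 transferases. The genes gstt1a, on chromosome 24, and gstcd, on chromosome 8, were therefore described only in the 12 libraries of pre-stress and 1 h. All libraries were scaled on genes of the complete chromosomes, and CPM below means counts per 1000000 counts of those genes after TMM scaling. All 8 transferases passed the filter on low counts. Markers of gill epithelium, ionocytes and endothelium were detected, and those of liver, summed over 7 genes, were between 0.067 and 50 CPM. The file headers name one sequencing lane for every 1 h library and another lane for the rest, so lane and time cannot be told apart in the change to 1 h, while the diets were compared within a lane. In bulk samples such as these, fewer cells of a type and less RNA per cell cannot be told apart.

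Levels of different genes were compared per length, as CPM per kb of exon, over the 12 libraries of pre-stress and 1 h. The rho gene gstr had 128 ± 40.2 CPM per kb (SD, n = 12) and the omega gene gsto1 had 126 ± 26.4. They were not separated, since gstr was above gsto1 in 7 of the 12 libraries. Next came mgst3b with 73.9 ± 13.5, gstm.1 with 55.9 ± 14.4, mgst2 with 33.9 ± 7.02 and gstt1a with 22.5 ± 2.19 CPM per kb. The order of each of these against the next held in 11 or 12 of the 12 libraries, although their ranges overlapped. The theta gene gstt2 (7.46 ± 1.78) and gstcd (2.83 ± 0.344) were lowest, and each lay below the gene before it with no overlap of ranges. Both gstr and gsto1 exceeded 98.5% of the genes tested by this level, and gstcd exceeded 40.3%.

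**Figure D1:**
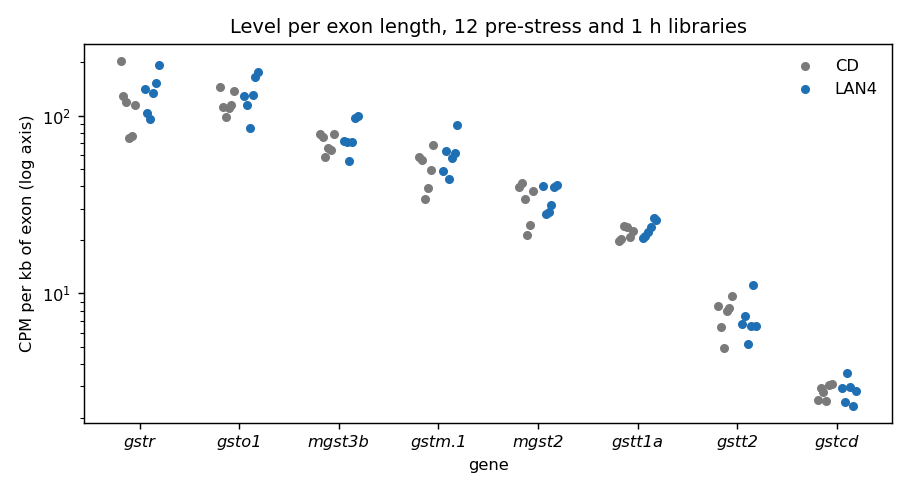
Level of the 8 glutathione transferase genes in CPM per kb of exon on a log axis, with 1 point per library for the 12 libraries of pre-stress and 1 h, CD in grey and LAN4 in blue. The means fall from 128 for gstr and 126 for gsto1 to 2.83 for gstcd.

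The gene gstr lies on chromosome 14 from 96517567 to 96524458 on the plus strand of the assembly Ssal_v3.1, with 2566 bases of exon. Before stress the CD fish had 519, 328 and 305 CPM and the LAN4 fish 363, 265 and 247. At 1 h the CD fish had 193, 197 and 291 CPM and the LAN4 fish 341, 393 and 493. At 6 h the CD fish had 428, 430 and 326 CPM and the LAN4 fish 279, 334 and 262. The diets thus overlapped before stress and at 6 h, and at 1 h all 3 LAN4 fish exceeded all 3 CD fish. The 3 CD fish at 1 h were also below every CD fish before stress, as for 11.6% of all genes tested in the 18 libraries. Among fish with the same replicate number before stress, LAN4 was lower than CD in 3 of 3 pairs, as for mgst3b. It was lower in 2 of 3 pairs for gsto1 and for mgst2, and in 1 of 3 for each of gstm.1, gstt1a, gstt2 and gstcd. The labels do not say that fish of the same number are matched, and the share over all genes was not computed. The group means were 384 ± 117 CPM in CD and 291 ± 62.3 in LAN4 before stress, 227 ± 55.7 and 409 ± 77.1 at 1 h, and 394 ± 59.5 and 291 ± 37.7 at 6 h (SD, n = 3 each). A gene without a symbol, ENSSSAG00000094191, lies opposite gstr over 5283 bases. Reads were counted by strand, and that gene had between 0 and 24 counts in a library, against 1842 to 6216 for gstr.

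The omega gene gsto1 lies on chromosome 1 from 64239943 to 64252838 on the minus strand, with 1495 bases of exon. Before stress it had 215, 166 and 146 CPM in CD and 193, 172 and 127 in LAN4. At 1 h the values were 165, 171 and 206 CPM in CD and 194, 247 and 262 in LAN4. At 6 h they were 210, 293 and 172 CPM in CD and 163, 152 and 142 in LAN4. The diets overlapped before stress and at 1 h, and at 6 h all LAN4 fish lay below all CD fish. Within LAN4 the 1 h fish all exceeded the pre-stress fish, but 1 of them, at 194 CPM, lay next to the highest pre-stress value of 193.

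The mu gene gstm.1, on chromosome 13 from 8711682 to 8719427 on the minus strand with 1404 bases of exon, had between 47.8 and 124 CPM over the 18 libraries. At 1 h it had 55.1, 69.5 and 95.8 CPM in CD and 81.4, 86.8 and 124 in LAN4, and at 6 h 75.7, 90.9 and 63.4 in CD and 59, 56.7 and 72 in LAN4. Its groups overlapped at every sampling time.

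The membrane-bound gene mgst2, whose human counterpart can make leukotriene C4, lies on chromosome 5 from 34687031 to 34688026 on the plus strand, with 564 bases of exon. Before stress it had 22.4, 23.4 and 19.2 CPM in CD and 22.5, 15.8 and 16.2 in LAN4. At 1 h it had 12, 13.6 and 21.3 CPM in CD and 17.6, 22.4 and 22.8 in LAN4. At 6 h it had 27.2, 29.5 and 24.5 CPM in CD and 14.9, 19.4 and 22.4 in LAN4. The diets overlapped before stress and at 1 h, where CD replicate 3 lay within the LAN4 range, and did not overlap at 6 h.

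The second membrane-bound gene, mgst3b, whose human counterpart MGST3 has transferase and peroxidase activity, lies on chromosome 1 from 23575370 to 23579416 on the plus strand, with 1126 bases of exon. Before stress it had 88.5, 85.8 and 65.8 CPM in CD and 80.8, 79.5 and 62.9 in LAN4. At 1 h it had 73.9, 71.7 and 88.9 CPM in CD and 80, 109 and 113 in LAN4. At 6 h it had 89.5, 109 and 80.5 CPM in CD and 67.5, 76.8 and 76.4 in LAN4. As for gsto1 and mgst2, the LAN4 fish were all below the CD fish at 6 h, and the diets overlapped at the earlier times. Before stress LAN4 was lower in 3 of 3 pairs of same-numbered fish, but the labels do not say that these fish are matched.

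The theta genes and gstcd had the lowest levels per length. The gene gstt2, on chromosome 20 from 13958048 to 13961575 on the minus strand with 1565 bases of exon, had between 7.76 and 17.5 CPM in the 18 libraries, and its diets overlapped at every time. It shares 1050 bases with LOC106580118 on the other strand, which had 109 to 257 counts. The gene gstt1a, on chromosome 24 from 25131513 to 25134592 on the minus strand with 1036 bases of exon, varied least, 1.34-fold between its lowest and highest library. It had 20.5, 20.9 and 24.8 CPM in CD and 21.4, 21.8 and 22.9 in LAN4 before stress, and 24.4, 21.4 and 23.2 in CD and 24.4, 27.4 and 26.7 in LAN4 at 1 h. Its LAN4 fish at 1 h lay above the CD fish of that time and above the LAN4 fish before stress, although the lowest LAN4 and the highest CD fish at 1 h both round to 24.4 CPM. The gene gstcd, on chromosome 8 from 17323547 to 17392941 on the minus strand with 3539 bases of exon, had between 8.3 and 12.6 CPM in its 12 libraries, with overlap in every comparison. It shares 5994 bases with ENSSSAG00000052852 on the other strand.

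**Figure D2:**
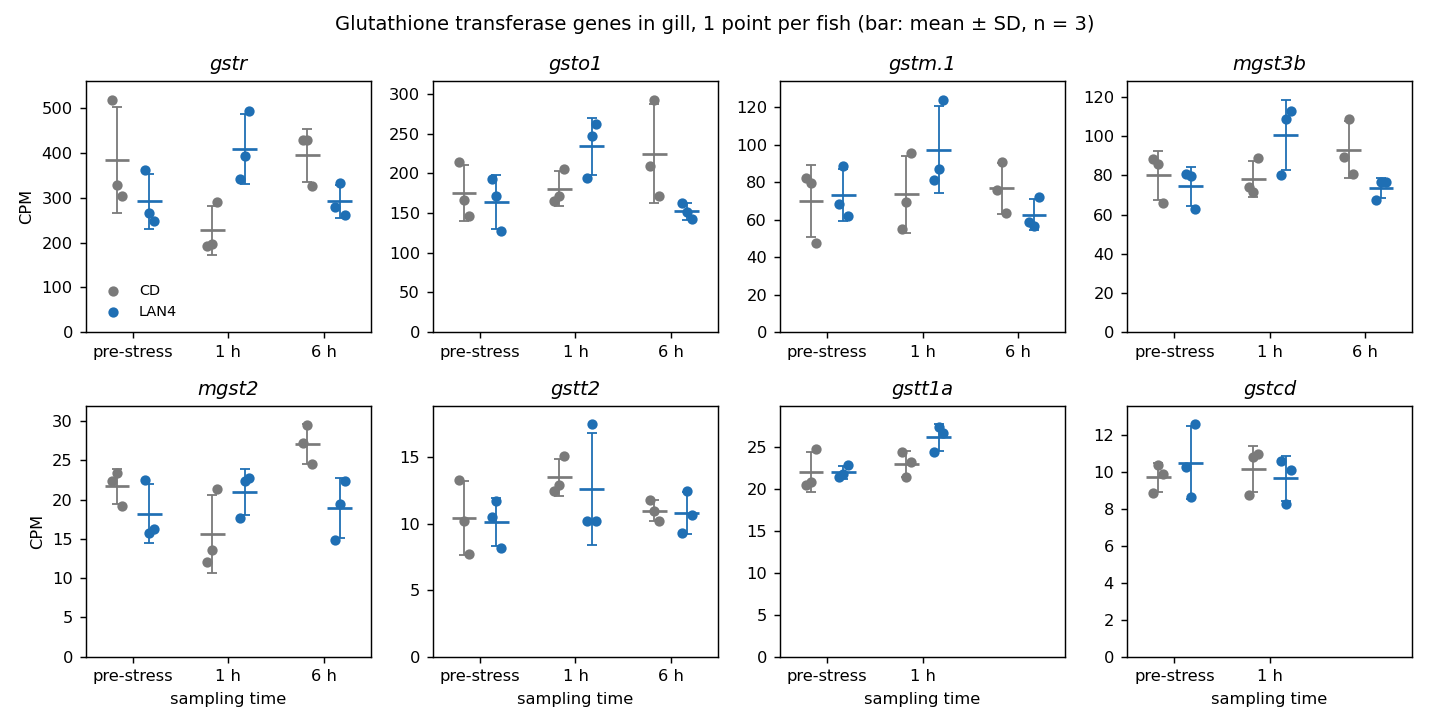
CPM of each glutathione transferase gene by sampling time, with 1 point per fish, CD in grey and LAN4 in blue. Bars are the mean ± SD of 3 fish, the vertical axes start at 0, and gstt1a and gstcd have no 6 h values. At 1 h the LAN4 fish of gstr sit between 341 and 493 CPM, above the CD fish at 193 to 291.

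The first question was whether the diets differed within a sampling time. Tests used edgeR's quasi-likelihood test, with p-values adjusted by Benjamini-Hochberg over all genes tested and a call at an adjusted p under 0.05. The 6 transferases on complete chromosomes were tested among 23147 genes in 18 libraries, and gstt1a and gstcd among 32962 genes in the 12 libraries of pre-stress and 1 h.

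Before stress the transferases did not pass the test between the diets. Of the 8 genes 0 were called by edgeR, 0 had an unadjusted p under 0.05 and 0 were called by DESeq2. Of all genes edgeR called 0.00864% in the 18 libraries and 0.00607% in the 12, and DESeq2 called 0.482% in the 18. The log2 fold changes of LAN4 against CD ran from -0.40 for gstr (95% interval -0.86 to 0.07) to 0.11 for gstcd (-0.26 to 0.47), and the median over the 8 genes was -0.07, against 0 over all genes tested in the 18 libraries. With the replicate number as a block, gstr had -0.39 (edgeR adjusted p = 0.646) and mgst3b -0.10 (adjusted p = 0.898).

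At 1 h post-stress 6 of the 8 transferases had higher fitted values in LAN4, but 0 of 8 were called by edgeR. The median of their log2 fold changes was 0.37. Of all genes, 0% were called in the 18 libraries (0 of 23147, with 1931 at an unadjusted p under 0.05 and 21, or 0.0908%, called by DESeq2), and 0.0152% in the 12 libraries. The share of positive values over all genes was 49.8% in the 18 libraries, with a median of 0. Several transferases varied together across the same fish, as described below, so their signs are not separate evidence. The gene gstr had a log2 fold change of 0.85 (standard error 0.22, 95% interval 0.38 to 1.32), a 1.8-fold difference, with an edgeR p of 0.00136 before adjustment and an adjusted p of 0.553. It ranked 57 of 23147 by p. DESeq2 on the same libraries called 0 of the 8, and DESeq2 on the 6 libraries of 1 h alone called gstr (log2 fold change 0.85, adjusted p = 0.00666), with 0.241% of all genes. With single libraries left out, its edgeR value ran from 0.69 to 1.06, with adjusted p-values of 0.226 to 0.988. An unadjusted p under 0.05 was reached by 8.34% of all genes in the 18 libraries, and the other member to do so was mgst3b, with 0.36 (0.04 to 0.69, edgeR adjusted p = 0.573). The values of mgst2, gstm.1 and gsto1 were 0.42 (-0.01 to 0.84), 0.40 (-0.10 to 0.91) and 0.37 (-0.04 to 0.78). That of gstt1a was 0.19 (-0.05 to 0.42), and those of gstt2 and gstcd were -0.10 and -0.08. All LAN4 fish were above all CD fish for gstr and gstt1a, as they were for 6.88% of all genes in the 18 libraries and 6.19% in the 12 libraries.

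At 6 h the fitted values pointed the other way. All 6 transferases measured there had negative log2 fold changes of LAN4 against CD, with a median of -0.39, against 50.2% positive values and a median of 0 over all genes. None was called (0 of 6 by edgeR, 3 at an unadjusted p under 0.05, 0 by DESeq2), where edgeR called 0.808% of all genes and DESeq2 3.48%. An unadjusted p under 0.05 was reached by 15.1% of all genes, and by 0 members without CD_6h replicate 2 and 1 without LAN4_6h replicate 1. The gene gsto1 had -0.56 (standard error 0.20, 95% interval -0.97 to -0.15, edgeR adjusted p = 0.168), mgst2 had -0.52 (-0.93 to -0.10, adjusted p = 0.213) and mgst3b had -0.34 (-0.66 to -0.02, adjusted p = 0.302). For these 3 genes all LAN4 fish lay below all CD fish, as for 8.06% of all genes. The values of gstr and gstm.1 were -0.44 (-0.90 to 0.03) and -0.29 (-0.80 to 0.21), and gstt2 stood at -0.02, a sign kept in 10 of 12 alternative fits. As at 1 h, the signs of the 6 genes are not separate evidence. Averaged over the sampling times, 0 of the 8 genes were called by edgeR or DESeq2 and 0 reached an unadjusted p under 0.05, where edgeR called 0.782% of all genes in the 18 libraries and 0.0212% in the 12, and DESeq2 2.62% in the 18. For the 6 genes on complete chromosomes these averages lay between -0.12 for mgst2 and 0.06 for gstm.1, and that of gstr was 0.00 (-0.26 to 0.27). For genes outside the complete chromosomes the average covered pre-stress and 1 h only. It was 0.09 for gstt1a and 0.01 for gstcd.

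**Figure D3:**
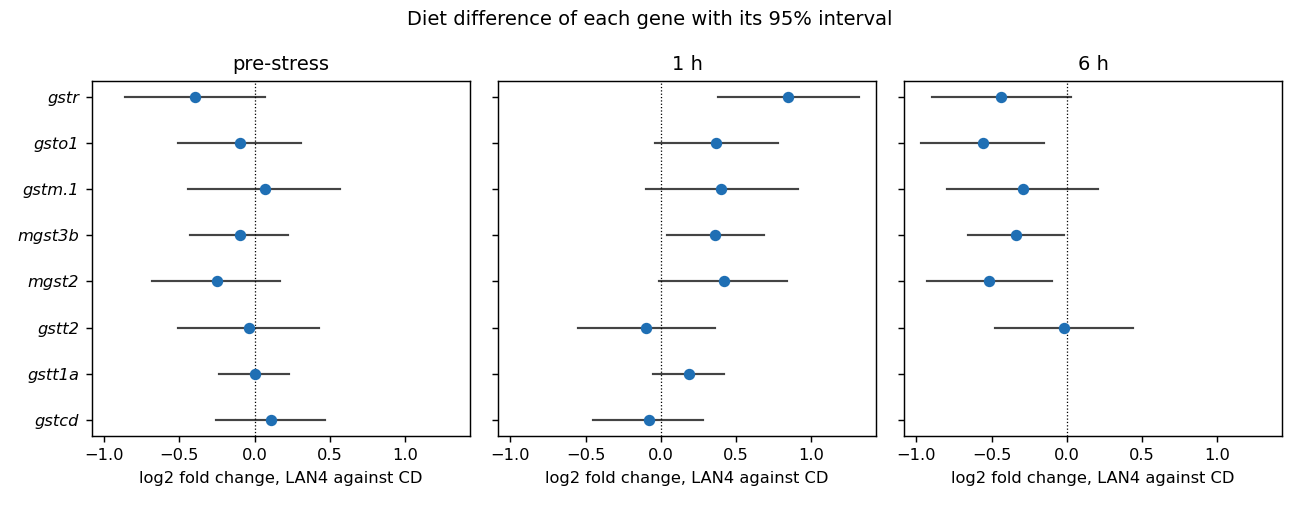
Log2 fold change of LAN4 against CD for each glutathione transferase gene (point) with its 95% interval (line) before stress, at 1 h and at 6 h, from the edgeR fits. At 1 h the interval of gstr runs from 0.38 to 1.32, and at 6 h the 6 genes measured all lie below 0, from -0.56 for gsto1 to -0.02 for gstt2.

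The second question was how the genes changed after stress within each diet. In CD from pre-stress to 1 h, the value of gstr was -0.76 (standard error 0.22, 95% interval -1.23 to -0.29, edgeR adjusted p = 0.086) and that of mgst2 was -0.47 (-0.90 to -0.05, adjusted p = 0.23). These were the 2 members with an unadjusted p under 0.05, which 17.4% of all genes in the 18 libraries reached. By edgeR 0 of 8 were called, against 1.96% of all genes in the 18 libraries and 1.62% in the 12. DESeq2 called 1 of 8, gstr, with a log2 fold change of -0.77 and an adjusted p of 0.018, and called 4.68% of all genes. Without CD_1h replicate 3, which had the highest gstr of its group, edgeR gave gstr -0.98 with an adjusted p of 0.0405, and without CD_pre replicate 1, the highest of its group, -0.50 with an adjusted p of 0.308. The remaining 6 members in CD ranged from -0.03 for mgst3b to 0.37 for gstt2.

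In LAN4 from pre-stress to 1 h, 7 of 8 transferases had positive values, with a median of 0.36 against 0 over all genes. Here too the signs of these genes are not separate evidence. Neither edgeR nor DESeq2 called any (0 of 8), and 4 reached an unadjusted p under 0.05 by edgeR, as did 14.5% of all genes in the 18 libraries. That count was 0 without LAN4_1h replicate 3, 1 without LAN4_pre replicate 3 and 2 without LAN4_1h replicate 2. Of all genes edgeR called 1.13% in the 18 libraries and 0.904% in the 12, and DESeq2 2.77% in the 18. The 4 genes were gsto1 with 0.51 (95% interval 0.10 to 0.93, edgeR adjusted p = 0.243), gstr with 0.49 (0.02 to 0.95, adjusted p = 0.321), mgst3b with 0.43 (0.11 to 0.76, adjusted p = 0.219) and gstt1a with 0.25 (0.01 to 0.48, adjusted p = 0.311). For gsto1 and gstt1a all fish at 1 h were above all fish before stress, as for 9.85% of all genes in the 18 libraries and 9.77% in the 12.

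Pre-stress and 6 h libraries were run on the same lane. In CD the 6 genes ranged from 0.04 for gstr to 0.35 for gsto1, and in LAN4 from -0.23 for gstm.1 to 0.09 for gstt2. For mgst2 in CD (0.32, 95% interval -0.09 to 0.73) all fish at 6 h were above all fish before stress, as for 11.9% of all genes. By edgeR and by DESeq2 0 of 6 were called in either diet, and 0 had an unadjusted p under 0.05 in either, while edgeR called 2.97% of all genes in CD and 3.84% in LAN4, and DESeq2 6.21% and 6.63%. The 95% interval of gstr was -0.42 to 0.50 in CD and -0.47 to 0.46 in LAN4, so changes within these bounds remain possible with 3 fish per group. These bounds are no limit of detection, since the gstr value of 0.85 between the diets at 1 h was not called by edgeR either.

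The difference between the diets in these changes was tested directly. From pre-stress to 1 h, gstr differed by 1.25 on the log2 scale (standard error 0.31, 95% interval 0.59 to 1.91, edgeR adjusted p = 0.283). Before adjustment its edgeR p was 0.000969. By edgeR 0 of 8 members were called and 3 reached an unadjusted p under 0.05, the others being mgst2 with 0.67 (0.07 to 1.27) and mgst3b with 0.47 (0.01 to 0.92). An unadjusted p under 0.05 was reached by 9.81% of all genes in the 18 libraries and 10.3% in the 12. With single libraries left out, 1 to 4 members reached it. Of all genes 0.00864% were called in the 18 libraries and 0.0182% in the 12. DESeq2 called 1 of 8, gstr, with 1.25 and an adjusted p of 0.0352, and called 0.239% of all genes. The edgeR value of gstr ran from 0.98 without CD_pre replicate 1 to 1.47 without CD_1h replicate 3. From pre-stress to 6 h, 0 of 6 members were called by edgeR or DESeq2 and 0 reached an unadjusted p under 0.05, where edgeR called 0.00432% of all genes and DESeq2 0.0346%, and gstr differed by -0.04 (-0.70 to 0.62).

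A further comparison, of the change from 1 h to 6 h between the diets, was added after the values above had been seen, and it joins the 1 h and 6 h libraries already compared. In it gstr had -1.29 (standard error 0.31, 95% interval -1.95 to -0.63, edgeR adjusted p = 0.0899), gsto1 -0.94 (-1.52 to -0.35, adjusted p = 0.13), mgst2 -0.94 (-1.53 to -0.34, adjusted p = 0.133) and mgst3b -0.70 (-1.16 to -0.24, adjusted p = 0.14). By edgeR 0 of 6 were called, 4 reached an unadjusted p under 0.05, and edgeR called 0.0173% of all genes. DESeq2 called 2 of 6, gstr with an adjusted p of 0.00619 and gsto1 with 0.0318, and called 3.21% of all genes. An unadjusted edgeR p under 0.05 was reached by 16.9% of all genes. The value of gstt2 was 0.08 (-0.57 to 0.72). The comparisons of gstr at 1 h rest on the same 3 CD and 3 LAN4 libraries of that time and are not separate evidence.

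Gill holds blood and other tissues, and marker genes of their cells moved with some of the values above. The erythrocyte markers (9 of the 26 names searched were matched, 8 of them on complete chromosomes, 0 of these at 0 in all libraries) summed to 1230 to 1380 CPM in CD and 1700 to 1820 in LAN4 at 1 h, without overlap, as for gstr. The leukocyte and skeletal muscle sums given below were also higher in LAN4 at 1 h without overlap. Of single genes in the 18 libraries 6.88% were so, and no such share was computed for sums. The most abundant erythrocyte markers were rhag and alas2, with means of 704 and 562 CPM over the 12 libraries of pre-stress and 1 h. Before stress the erythrocyte markers summed to 1330 to 1650 CPM in CD and 1350 to 1650 in LAN4, and at 6 h to 1350 to 2310 and 992 to 1550. Of the erythrocyte markers 0 of 9 were called between the diets at 1 h by edgeR or DESeq2, 3 had an unadjusted p under 0.05, and their median log2 fold change was 0.38. At 6 h edgeR called 0 of 8 and DESeq2 called 2, alas2 and tal1, 6 had an unadjusted edgeR p under 0.05, and the median was -0.84, of the same sign as the transferases at both times.

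The leukocyte markers (8 of 23 names matched, 6 on complete chromosomes, with marco, on another chromosome, at 0 in the 12 libraries of pre-stress and 1 h) summed to 5010 to 5190 CPM in CD and 5280 to 6460 in LAN4 at 1 h, and to 4910 to 6120 and 4560 to 5160 at 6 h. Before stress they were higher in CD, at 5700 to 6360 CPM, than in LAN4, at 4920 to 5410. The most abundant of them was cd74a, with a mean of 4890 CPM over the 12 libraries of pre-stress and 1 h, so the sums follow mostly this gene. Gene by gene, 4 of the 7 leukocyte markers tested at 1 h had positive values of LAN4 against CD. Their median log2 fold change was 0.14, and 0 had an unadjusted edgeR p under 0.05. The skeletal muscle markers (19 genes matched from 38 names, 12 on complete chromosomes) were higher in LAN4 at every time, with sums of 888 to 1010 CPM in CD and 1210 to 1330 in LAN4 before stress, 895 to 947 and 1000 to 1250 at 1 h, and 876 to 948 and 1210 to 1450 at 6 h. The most abundant genes in these sums were tpm1 and aldoaa, with means of 556 and 315 CPM over the 12 libraries of pre-stress and 1 h. Gene by gene the muscle markers had larger differences than these sums, with median log2 fold changes of 1.25 before stress, 1.28 at 1 h and 2.17 at 6 h. Of them 5 of 16, 5 of 16 and 8 of 10 had an unadjusted p under 0.05, and edgeR called 0 at each time and DESeq2 1, 0 and 0. Averaged over the sampling times, 13 of 16 muscle markers had an unadjusted edgeR p under 0.05, as did 12.3% of all genes in the 18 libraries. In that average edgeR called 0 of them and DESeq2 called 6, where DESeq2 called 2.62% of all genes. The gill epithelium markers summed to 405 to 443 CPM in CD and 374 to 412 in LAN4 at 1 h, with overlap. At 6 h the cartilage markers summed to 5930 to 8570 CPM in CD and 9610 to 10400 in LAN4, and those of endothelium and pillar cells to 413 to 713 and 748 to 920. Both were thus higher in LAN4 where the transferases had negative values. Cartilage was also higher in LAN4 before stress, at 12800 to 16100 against 8440 to 12600 CPM, and both lists overlapped at 1 h. At 6 h edgeR called 0 of 9 cartilage and 1 of 6 endothelium markers. DESeq2 called 4 (col10a1a, col11a1a, col2a1b and hapln1b) and 3 (erg, pecam1a and plvapb). Of all genes edgeR called 0.808% there and DESeq2 3.48%. The ionocyte markers overlapped at 6 h, with 753 to 1110 CPM in CD and 949 to 1120 in LAN4. The part of any of these cells in the values of the transferases was not tested.

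**Figure D4:**
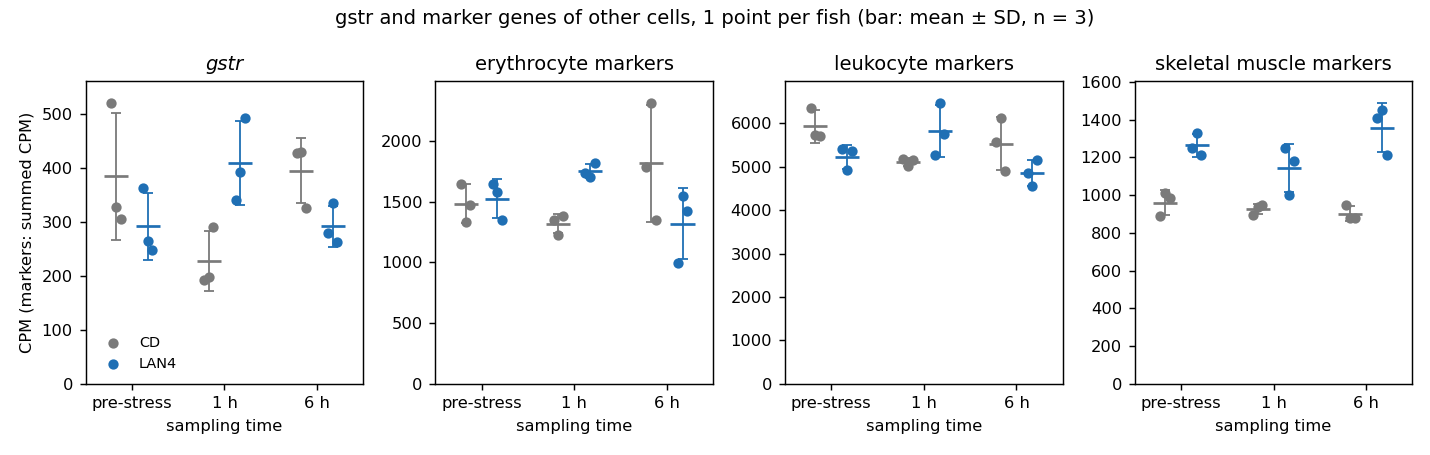
CPM of gstr and summed CPM of erythrocyte, leukocyte and skeletal muscle markers by sampling time, with 1 point per fish, CD in grey, LAN4 in blue, and bars for the mean ± SD of 3 fish. At 1 h gstr (193 to 291 against 341 to 493) and the erythrocyte markers (1230 to 1380 against 1700 to 1820) are higher in LAN4 without overlap. So are the sums of the leukocyte markers (5010 to 5190 against 5280 to 6460), of which cd74a was the most abundant, and of the muscle markers (895 to 947 against 1000 to 1250). Gene by gene, 4 of the 7 leukocyte markers tested had positive values at 1 h. The muscle markers are higher in LAN4 at all 3 times.

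Several transferases varied together across fish. Given as descriptions over 18 libraries that share their groups and lanes, the Pearson correlation of log2 CPM was 0.92 between gsto1 and mgst3b (0.86 after the group means were removed), 0.82 between gstm.1 and mgst3b (0.79) and 0.79 between gstr and mgst2 (0.67). The correlation of gstr with gsto1 was 0.70 (0.80) and with mgst3b 0.72 (0.73). The theta gene gstt2 stood apart from gstr, at 0.11, and from mgst2, at 0.07, although these were 0.51 and 0.43 once the group means were removed. Of the 23146 other genes compared, those most like gstr were LOC106568991 (0.936), LOC106580506 (0.922), LOC100136484 (0.904), LOC106612687 (0.90) and LOC106566962 (0.892), none of which carries a gene symbol in the annotation used. For comparison, the correlation of gstr with mgst2 exceeded that with 99.5% of genes. The share was 98.3% for mgst3b, 97.8% for gsto1, 91.9% for gstm.1 and 63.2% for gstt2. No such share was computed for pairs without gstr.

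The other genes of glutathione and antioxidant metabolism were counted from lists of names. Many names matched no gene, so the counts cover only part of this metabolism. Genes matched numbered 7 for 19 names of glutathione reduction and peroxidases, 8 for 22 of the thioredoxin list, 7 for 28 of synthesis and breakdown and 5 for 28 of the Nrf2 list. They numbered 6 for 22 names of the Ah receptor list, 4 for 11 of conjugate transporters, 2 for 35 of other transferases and 2 for 8 of the glyoxalase list. Between the diets, edgeR called 0 of the 37 list genes tested before stress and at 1 h and 0 of 26 at 6 h, with 4, 13 and 2 at an unadjusted p under 0.05, which 9.29%, 8.34% and 15.1% of all genes in the 18 libraries reached. DESeq2 called 0 at each of these times and 1, ptges, in the average over them, where edgeR called 0 of 37 with 4 at an unadjusted p under 0.05. At 1 h, 6 of the 7 genes of glutathione reduction and peroxidases had positive values (median 0.33, 3 with an unadjusted p under 0.05), as did 7 of the 7 genes of the thioredoxin system, peroxiredoxins, superoxide dismutases and catalase (median 0.26, 3 with an unadjusted p under 0.05). At 6 h these lists had 2 of 6 and 1 of 5 positive values, with medians of -0.12 and -0.09. Genes of glutathione synthesis and breakdown had a median of -0.06 at 1 h (2 of 5 positive, 1 with an unadjusted p under 0.05), and those of the Nrf2 regulators and targets, which include nfe2l2a, the gene of a transcription factor known to induce transferases, a median of 0.06 (5 of 5 positive, 1 with an unadjusted p under 0.05).

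At 1 h the 5 genes tested of the Ah receptor and cytochrome P450 list had a median of 0.33 (3 positive, 3 with an unadjusted p under 0.05). The 4 conjugate transporters had one of -0.10 (1 positive, 0 with an unadjusted p under 0.05). The genes ptges and hpgds, 2 glutathione-dependent prostaglandin synthases, had one of 0.32 (2 positive, 1 with an unadjusted p under 0.05). The list of glyoxalase and other glutathione-dependent enzymes, with 2 genes, ltc4s and sqor, had a median of -0.22 (1 positive, 1 with an unadjusted p under 0.05).

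Against pre-stress, edgeR called 2 of the 37 list genes in CD and 1 of 37 in LAN4 at 1 h, and 1 of 26 and 3 of 26 at 6 h, beside the shares of all genes given above for these comparisons. These were 4 genes, and all edgeR calls among them were upward. The gene chac1, whose product degrades glutathione, rose at 1 h in CD from 72.7 ± 9.59 to 132 ± 15.9 CPM (SD, n = 3 each), a log2 fold change of 0.86 with an adjusted edgeR p of 0.00126, and in LAN4 from 67.7 ± 5.62 to 164 ± 26.7 CPM (1.27, adjusted p = 1.9e-05). The gene ptges, a MAPEG relative of mgst2 and mgst3b that makes prostaglandin E2, rose at 6 h from 16.5 ± 2.43 to 33.1 ± 4.21 CPM in CD (1.00, adjusted p = 0.00368) and from 22.7 ± 2.91 to 42.6 ± 7.92 in LAN4 (0.90, adjusted p = 0.00476). The MAPEG gene ltc4s, leukotriene C4 synthase, rose in CD at 1 h from 19.8 ± 2.22 to 31.4 ± 4.34 CPM (0.66, adjusted p = 0.0276), and in LAN4 at 6 h from 19.5 ± 4.43 to 28.4 ± 2.27 (0.55, adjusted p = 0.049). It was not called in the other diet, with 22.9 ± 0.631 CPM in LAN4 at 1 h and 21.8 ± 2.84 in CD at 6 h. For the difference between the diets in the change to 1 h or to 6 h, 0 of the 2 glyoxalase list genes had an unadjusted edgeR p under 0.05. In the added comparison from 1 h to 6 h DESeq2 called ltc4s and edgeR did not. The Nrf2 inhibitor keap1a rose at 6 h in LAN4 from 21.5 ± 4.24 to 36.3 ± 3.43 CPM (0.76, adjusted p = 0.0211). In CD it had 33.3 ± 5.92 CPM at 6 h against 25.1 ± 5.77 before stress, not called by edgeR or DESeq2. For the difference between the diets in the change to 6 h, 0 of the 3 Nrf2 list genes tested had an unadjusted edgeR p under 0.05. In CD at 1 h keap1a had 16.3 ± 1.18 CPM against 25.1 ± 5.77 before stress (-0.63, edgeR adjusted p = 0.0752). DESeq2 called keap1a there, with gsr (-0.60), sod1 (-0.48) and txnb (-0.58) in the same direction, and in LAN4 at 1 h it called maff (0.56) and txnip (0.52), where the values in parentheses are edgeR log2 fold changes. Of the MAPEG genes measured at 6 h, ptges and ltc4s were thus called in at least 1 diet, and mgst2 and mgst3b in neither, but the difference between these genes was not tested.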

How the data were processed

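The authors processed the reads with nf-core rnaseq, aligned them to Ssal_v3.1 and counted fragments per gene by strand with featureCounts (Subread 1.5.1). The deposited values are raw counts per gene. Genes were paired with RefSeq symbols by position (both spans overlapping by at least 0.5), which gave 8822 genes a symbol that is no LOC number. Counts were analysed in R 4.3.3 with edgeR 4.0.16 (TMM, filterByExpr, robust quasi-likelihood fit) and in DESeq2 1.42.0 as an alternative. A prior count of 2 was added for the log2 CPM of the correlations only. Normalization used genes of the 16 complete chromosomes. The fit was tested on simulated data, with the same spread between fish set for every gene rather than taken from gstr. In these data most large changes were called and changes of the size of that of gstr at 1 h seldom were. A first rule for passing, on all changed genes together, was not met. It was replaced by a rule on the large changes, the fold changes and the false calls. The power for gstr itself was not measured, and 0 calls does not show that such changes are absent. The 10 planned comparisons were also run with other size factors, no filter, a replicate block, fewer libraries and each library left out.

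The 8 transferases were all named, with any listed gene at an adjusted p under 0.05 (at most 4 per list) and the 5 genes most like gstr. The members and lists were chosen with earlier results of these data known. Replicate numbers are shared across groups in the labels. Same-numbered fish deviated together before stress (correlations 0.117, 0.149 and 0.147 between CD and LAN4), and in the other 6 pairs of groups compared at least 1 correlation was negative. Libraries of a group differed by at least 7.81 times the sampling noise (chi-square per degree of freedom), so none was counted as a repeat.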

Additional observations from a re-analysis of the deposited data

Results flagged for a closer look

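One signal lay outside the genes compared. ENSSSAG00000094191, on the strand opposite gstr, had 20 and 24 counts in the LAN4 libraries of replicates 1 and 2 at 6 h, against 5, 4 and 9 in CD at 6 h and 3 in the remaining LAN4 library of that time. Its highest count in any other group was 8. The same libraries had 279 and 334 CPM of gstr. The difference was not tested. With 3 fish per group, no group was examined for single outlying fish. By edgeR 0 of the differences between the diets in the change after stress passed the adjusted threshold for a transferase. In the change to 1 h, 3 had an unadjusted edgeR p under 0.05, as did 9.81% of all genes in the 18 libraries, and DESeq2 called 1.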

How the results depend on the processing

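The number of transferases called was 0 in all comparisons by edgeR and stayed 0 in 151 of 156 alternative values. DESeq2 gave 1 in the change to 1 h in CD (gstr -0.77), 1 in the difference between the diets in that change (gstr 1.25) and 2 in the added comparison from 1 h to 6 h (gstr -1.30, gsto1 -0.95), and DESeq2 on the 6 libraries of 1 h gave 1 between the diets (gstr 0.85). With each library left out in turn the count was 0 to 1 for the change to 1 h in CD, the 1 being gstr without CD_1h replicate 3 (-0.98). The replicate block left the count of transferases at 0 in all comparisons and changed no call of theirs. Of 78 log2 fold changes, 49 kept their sign in all alternatives run, and no called value turned its sign.

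Counts over all genes moved more. DESeq2 called 105 genes before stress (edgeR 2), 21 at 1 h (0), 806 at 6 h (187), 607 averaged (181), 1020 and 516 in the change to 1 h in CD and LAN4 (453 and 261), 1241 and 1355 in the change to 6 h (688 and 890), and 52, 8 and 585 in the differences of change to 1 h, to 6 h and from 1 h to 6 h (2, 1 and 4). Leaving out 1 library gave 1 to 3, 0 to 1, 0 to 88, 6 to 349, 173 to 412, 164 to 265, 223 to 696, 341 to 805, 0 to 4, 0 to 3 and 0 to 102 in the same order. The replicate block gave 1, 0, 157, 153, 457, 246, 644, 812, 0, 0 and 0. The cause was not tested. With 3 fish per group, the 95% intervals of the transferases were wide, and those that span 0 leave differences in both directions possible.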
